A study of Homo sapiens with 4 samples.

Results

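The 10 keratin genes described here were KRT5, KRT14, KRT6A, KRT6B, KRT16 and KRT17, which mark basal or activated squamous and mammary epithelium, and KRT7, KRT8, KRT18 and KRT19, which mark simple and luminal epithelium. The rule chose them by name and used no measured value, but it was set with earlier results of these data known. Each gene was found through probes whose transcript accession belongs to it in RefSeq. They made up 10 of the 20501 genes with a named probe and were measured by 14 of 50590 probes. RNA came from MCF-10A, an established human line of non-tumorigenic mammary epithelial cells, grown in mammary epithelial medium with pituitary extract, hydrocortisone, EGF, insulin and cholera toxin. All cultures received a hydrocarbon-stapled peptide at 10 µM, either the one labelled stapled-peptide or that labelled non-specific stapled-peptide, and RNA was taken after 24 h or 48 h. Each of these 4 conditions was measured on 1 single-colour Agilent array, and no array of untreated cells was analysed here. With 1 array per condition there was no test, and precision is limited by how few arrays there are. The comparison of peptides addressed which transcripts differ between MCF-10A cells given stERAP-2 and those given stERAP-5, peptides made after the segment of BIG3 that binds PHB2, but the labels do not settle which label stands for which peptide. They also give control as the treatment of both arrays of non-specific stapled-peptide. Differences are therefore given by label, in log2 units, with the value of stapled-peptide subtracted from that of non-specific stapled-peptide at the same time, and their direction between stERAP-2 and stERAP-5 is not settled. The name non-specific makes stERAP-5, to which the study ascribes off-target effects, the likelier peptide of those arrays, and the control tag points the other way.

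Keratins are the intermediate filament proteins of epithelial cells, and they polymerise only as pairs of one acidic (type I) and one basic (type II) chain. KRT5 with KRT14 builds the filaments of basal cells of stratified epithelia and of the basal or myoepithelial layer of the breast. KRT6A, KRT6B, KRT16 and KRT17 are made in skin appendages and are induced in wounded, stressed or proliferating keratinocytes. KRT8 with KRT18 forms the first keratin pair of the embryo and the main pair of simple epithelia, and KRT7 and KRT19 are added in ductal and luminal cells. MCF-10A is usually described as a basal-type line that also carries simple-epithelial keratins.

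Of the 4 arrays, that of non-specific stapled-peptide at 48 h stood apart. Log2 signals were correlated over all probes well above background on at least 1 array of a pair. For this array, Pearson r was 0.799 to 0.807 with the 3 others, whereas these 3 correlated with one another at 0.976 to 0.978. The arrays came from 1 slide and 1 scan, had no saturated spot, and had 62.5% to 65.7% of spots well above background. The slope of the spike-in controls was 0.962 on this array and 1.03 on each of the others. Every peptide difference at 48 h and every time difference with non-specific stapled-peptide rests on this single array, so the peptide difference at 24 h and the time difference with stapled-peptide are given as the values without it. Because each array measured the RNA of a whole culture, fewer cells of a type and less RNA per cell cannot be told apart. Whether this array holds RNA of the labelled MCF-10A culture was not tested, and each difference at 48 h is one between 2 labelled arrays.

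Transcripts of 8 of the 10 keratins were over 2-fold lower with non-specific stapled-peptide than with stapled-peptide at 48 h, against 19.8% of the 17112 genes with a difference, of which 21.2% were over 2-fold higher. The count over 100-fold lower was 4 of 10 (KRT5, KRT14, KRT6A and KRT17), against 0.707% of all genes. KRT6B and KRT19 did not share the lower signals, but both were low on every array. On the array of non-specific stapled-peptide at 48 h, the lowest log2 signal called well above background was 3.57. With stapled-peptide at 48 h, KRT19 read 4.50 and KRT6B 5.96. KRT19 therefore could not have been called over 2-fold lower, nor KRT6B over 10-fold lower. The 8 lower keratins read 10.26 (KRT16) to 15.97 (KRT7) with stapled-peptide at 48 h. Dim genes among the 17112 have the same limit, so the shares of all genes are not those of equally bright genes. At 24 h, none of the 10 differed by over 2-fold, where 1.04% of 16228 genes were over 2-fold lower and 0.838% over 2-fold higher. The median difference of the 10 keratins at 48 h was −5.92 on the log2 scale, beside 0.03 over all genes, and at 24 h it was −0.09, beside 0.01 over all genes.

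**Figure D1:**
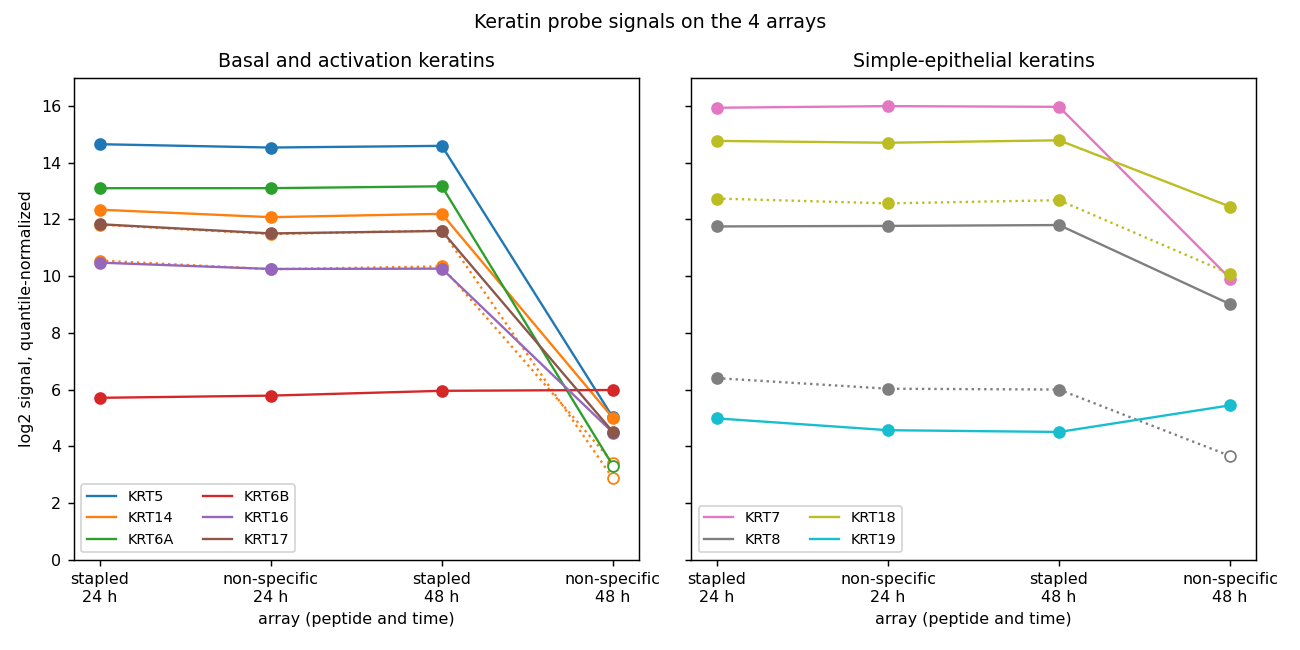
Quantile-normalized log2 signal (y axis) of each keratin probe on the 4 arrays (x axis), with basal and activation keratins on the left and simple-epithelial keratins on the right; solid lines are the probe used for the gene, dotted lines its other probes, and open circles are probes not well above background. KRT5, KRT14, KRT6A, KRT16, KRT17 and KRT7 run flat over the first 3 arrays and lie far lower on the last, KRT8 and KRT18 lie lower by less, and KRT6B (5.71 to 5.98) and KRT19 (4.50 to 5.44) stay low on all 4.

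The basal pair held some of the largest differences. KRT5, the type II chain of basal cells, had log2 signals of 14.65 (stapled-peptide) and 14.54 (non-specific stapled-peptide) after 24 h, and of 14.59 and 5.02 after 48 h. The signals on 3 arrays lay within 0.12 of one another, and that of non-specific stapled-peptide at 48 h was far below them, at 0.131% of the level with stapled-peptide. As the scanner software gave them, the signals at 48 h were 22982 ± 2298 and 31.5 ± 4.48, where the error is the software's own estimate for the spot and covers no variation between cultures. The difference at 48 h was −9.58, 765-fold lower, and that at 24 h was −0.12.

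KRT14, the type I partner of KRT5, was measured by 3 probes. The brightest had log2 signals of 12.34 and 12.08 at 24 h and of 12.20 and 5.00 at 48 h, in the same order of peptides, and its difference at 48 h was −7.20, or 147-fold lower. Both other KRT14 probes were dim with non-specific stapled-peptide at 48 h, that is not well above background, and their differences are bounds, in which the dim array enters at the higher of the probe's own signal and the lowest signal called well above background on that array. These bounds put KRT14 at least 110-fold and at least 264-fold lower, at log2 differences of −6.78 and −8.04. All 3 probes therefore pointed the same way at 48 h, with a range of 1.27 between them, and all lay between −0.33 and −0.26 at 24 h.

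The bases upstream of the gene are shown for the 2 members with an entry in the RefSeq promoter table, KRT5 and KRT8, because both are type II keratins of the same gene cluster and their differences at 48 h were far apart (−9.58 and −2.79). Each sequence holds the 250 bases before the annotated transcription start on the minus strand of GRCh38.p14, chr12:52520395-52520644 for KRT5 and chr12:52926470-52926719 for KRT8, with the run ATAAAA in capitals.
KRT5: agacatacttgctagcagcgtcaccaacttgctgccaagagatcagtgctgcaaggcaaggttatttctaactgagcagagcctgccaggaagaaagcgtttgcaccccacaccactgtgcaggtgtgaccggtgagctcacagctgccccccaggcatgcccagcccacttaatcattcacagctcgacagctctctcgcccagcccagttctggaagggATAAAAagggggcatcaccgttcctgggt
KRT8: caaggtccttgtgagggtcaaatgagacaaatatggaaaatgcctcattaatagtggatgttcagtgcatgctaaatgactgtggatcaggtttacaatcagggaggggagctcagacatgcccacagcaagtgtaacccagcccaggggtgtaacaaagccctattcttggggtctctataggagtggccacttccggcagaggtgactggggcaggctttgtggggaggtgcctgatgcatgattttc
The KRT5 window had a GC content of 56% and held 1 match to ATAAAA, whose first base lies at −29 from the start. This run was searched for after the window had been read, and 14.8% of 35116 promoter windows of the same length held it on either strand. The KRT8 window had a GC content of 50.4% and no match to it. Neither window held the TATA box motif TATAAA on either strand, which was found in 10.72% of the windows. The Sp1 motif GGGCGG was likewise in neither of them and in 42.6% of all windows. The AP-2 motif GCCNNNGGC, where N is any base, was in neither and in 19.8% of all. The same held for the AP-1 motif TGANTCA, with a share of 6.57%, and for the CCAAT box, with a share of 32.0%. A TATAAA run followed by A also holds ATAAAA. A missing match says only that these letters are not in these bases. Each window precedes 1 annotated start of its gene, and other starts were not examined. Which start these cells use was not tested.

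Among the activation keratins, KRT6A, KRT16 and KRT17 were far lower with non-specific stapled-peptide at 48 h, unlike KRT6B. KRT6A, a type II chain, had log2 signals of 13.10 with either peptide at 24 h, and at 48 h of 13.17 with stapled-peptide but 3.32 on the non-specific stapled-peptide array, where its probe was dim. It was at least 777-fold lower, a bound of −9.60, and its difference at 24 h was 0.00. Measured signals at 48 h were 8435 ± 844 and 8.95 ± 3.21 in the software's units.

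KRT17, a type I chain, had log2 signals of 11.83 and 11.51 at 24 h and of 11.59 and 4.51 at 48 h for stapled-peptide and non-specific stapled-peptide. Only the last of these stood apart, at 0.735% of the level with stapled-peptide, a difference of −7.09 or 136-fold. KRT16, the usual type I partner of KRT6, had 10.48 and 10.25 at 24 h and 10.26 and 4.48 at 48 h. It was 55.0-fold lower at 48 h, a difference of −5.78, and thus the one of these 3 that did not pass 100-fold. It also had the lowest signal of these 3 with stapled-peptide at 48 h. On the other array, KRT16 and KRT17 both read not far above 3.57, the lowest signal called well above background there.

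KRT6B, a close relative of KRT6A, had a low log2 signal on every array, 5.71 and 5.79 at 24 h and 5.96 and 5.98 at 48 h. Its difference was 0.08 at 24 h and 0.03 at 48 h (−0.06 with the normexp background correction), and its signal on the array that stands apart was the highest of the 4 by a small margin. The probes of KRT6A, KRT6B and KRT6C, and those of KRT14, KRT16 and KRT17 and their pseudogenes, come from genes of very similar sequence. The files give no probe sequences, so how far each probe also reads a relative was not tested.

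Among the simple-epithelial keratins, KRT7, KRT8 and KRT18 were lower with non-specific stapled-peptide at 48 h, unlike KRT19. KRT7, a type II chain of ductal epithelium, had log2 signals of 15.94 and 16.00 at 24 h and of 15.97 and 9.91 at 48 h. It was 66.5-fold lower with non-specific stapled-peptide at 48 h, a difference of −6.06, yet its remaining signal of 1022 ± 102 in the software's units was well above background. The difference of KRT7 thus lay between those of KRT17 and KRT16.

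KRT8 and KRT18 are the general pair of simple epithelia. KRT8 had log2 signals of 11.75 and 11.77 at 24 h and of 11.80 and 9.01 at 48 h, a difference of −2.79 or 6.92-fold lower, which left 14.5% of the level with stapled-peptide. A dimmer KRT8 probe read 6.40, 6.03, 6.00 and 3.66 on the arrays in the same order, was dim on the last, and gave a bound of at least 5.07-fold lower. KRT18 had 14.77 and 14.70 at 24 h and 14.79 and 12.45 at 48 h, a difference of −2.34 or 5.06-fold lower. Its second probe read 12.74, 12.57, 12.68 and 10.08 and differed by −2.60 at 48 h. The KRT8 and KRT18 pair was thus lower on the same array as the basal keratins and kept a clear signal there.

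KRT19, the smallest keratin, which is common in luminal cells, was close to background throughout, with log2 signals of 4.98 and 4.57 at 24 h and of 4.50 and 5.44 at 48 h. It was the member with the widest spread over the 3 other arrays, 0.48, and its difference at 48 h was 0.94, or 1.92-fold higher, which does not reach 2-fold. It was 0.26 with the normexp background correction and 1.21 without normalization. In the software's units, its signals at 48 h were 19.5 ± 3.89 and 45.0 ± 5.46.

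**Figure D2:**
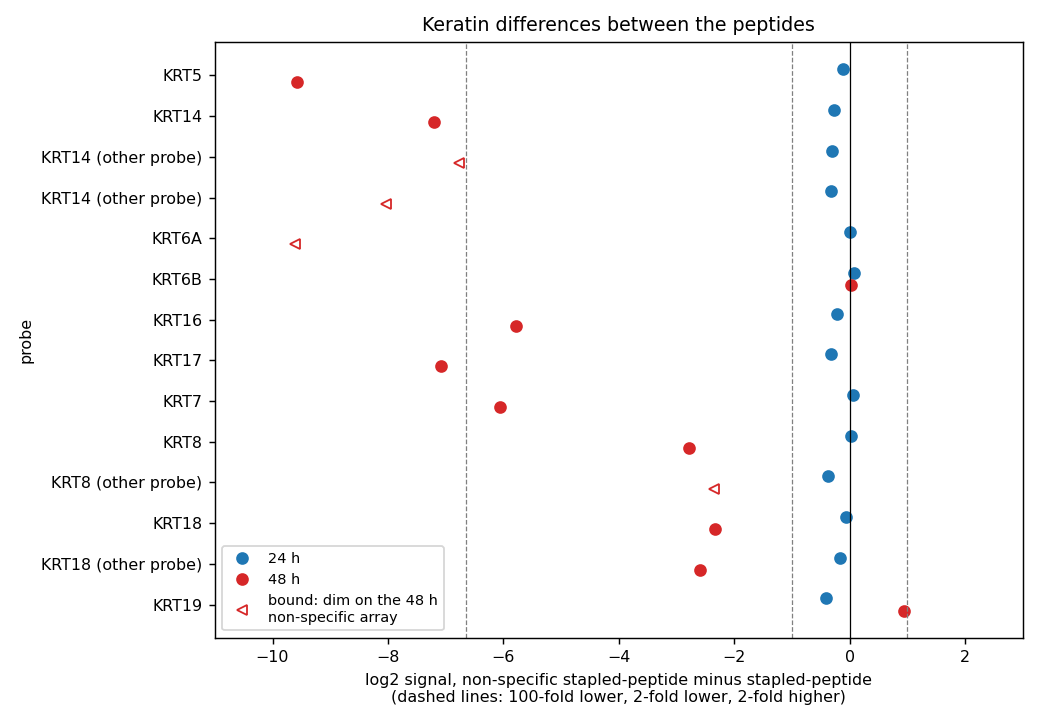
Log2 difference between the peptides, non-specific stapled-peptide minus stapled-peptide (x axis), for each of the 14 keratin probes (y axis) at 24 h (blue) and 48 h (red); open triangles are bounds, and dashed lines stand at 100-fold lower and 2-fold in either direction. All blue points lie between −0.42 and 0.08, and the red points reach from −9.60 for KRT6A to 0.94 for KRT19.

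In the comparison of basal with simple-epithelial keratins, the 6 basal and activation members had a median difference of −7.14 at 48 h and the 4 simple-epithelial members one of −2.57, beside 0.03 over all genes. Of the former, 5 of 6 were over 10-fold lower, and of the latter 1 of 4, against 3.92% of all genes. KRT6B and KRT19 were too dim with stapled-peptide at 48 h to be called over 10-fold lower, as were other dim genes among all genes. The medians differed by −4.58, but the groups overlapped, since KRT7 lay lower than KRT16 and KRT6B lay at 0.03. On the array that stands apart, KRT5, KRT14, KRT17 and KRT16 had log2 signals of 5.02, 5.00, 4.51 and 4.48, and KRT6A was dim. These lie near the lowest signal called well above background there, 3.57, so their differences depend largely on the signal with stapled-peptide. From the lowest upwards, the order was KRT6A, KRT5, KRT14, KRT17, KRT7, KRT16, KRT8, KRT18, KRT6B and KRT19. No replicate array gives an error for this order, and the 3 probes of KRT14 alone, 2 of them given as bounds, spanned 1.27. Only the steps from KRT5 to KRT14, from KRT16 to KRT8 and from KRT18 to KRT6B were wider than that. The range covers no variation between cultures, so a wider step is no test either, and the neighbours within each block are not told apart. With the normexp background correction the order changed. KRT5 (−7.94) then lay lowest, followed by KRT6A (−6.86), and KRT7 (−5.92) lay lower than KRT14 (−5.51) and KRT17 (−5.25). Among all 17112 genes ranked from the lowest difference, KRT6A stood at rank 2, KRT5 at 3, KRT14 at 89, KRT17 at 94, KRT7 at 164, KRT16 at 179, KRT8 at 888 and KRT18 at 1190. KRT6B and KRT19 had ranks of 8537 and 13248, amid the bulk of genes.

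**Figure D3:**
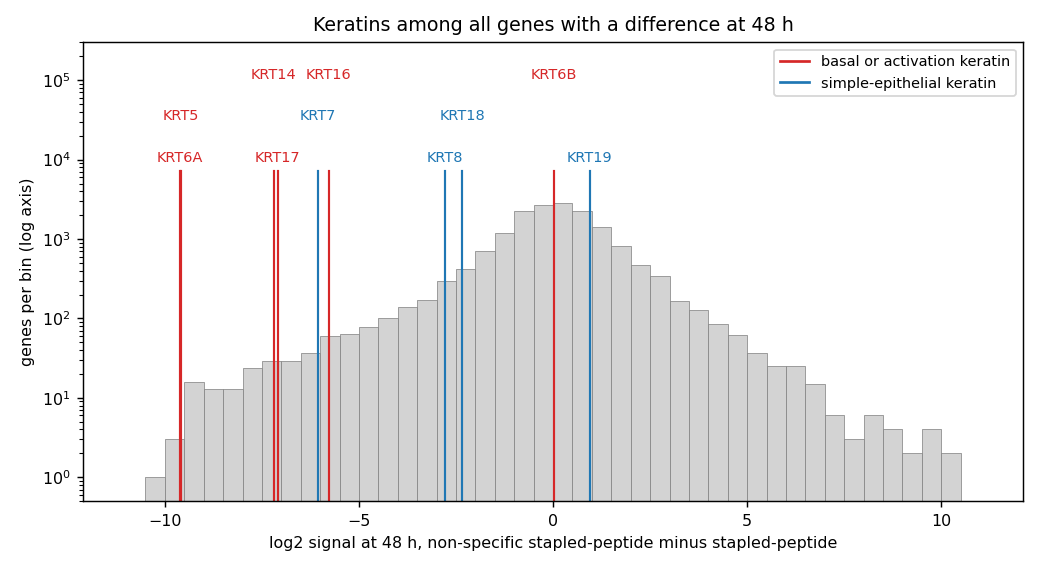
Number of genes per bin (y axis, log scale) against the log2 difference at 48 h, non-specific stapled-peptide minus stapled-peptide (x axis), for the 17112 genes with a difference, with basal or activation keratins marked in red and simple-epithelial keratins in blue. KRT6A and KRT5 lie at the far left end, KRT8 and KRT18 on the left slope, and KRT6B and KRT19 within the central peak.

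Without the array that stands apart, basal and simple-epithelial keratins were alike in showing small differences only. Between the peptides at 24 h, the median was −0.17 for the basal and activation keratins and −0.02 for the simple-epithelial ones, and the widest value was the −0.42 of KRT19. From 24 h to 48 h with stapled-peptide, the medians were −0.10 and 0.03, and 0 of 10 members passed 2-fold in either direction, where 1.13% of 16138 genes were over 2-fold lower and 0.923% over 2-fold higher. For scale, the standard deviation of the 24 h peptide differences was 0.43. It was taken over all probes, not genes, that were well above background on at least 1 of the 2 arrays, bounds included. KRT17 (−0.33), KRT14 (−0.26) and KRT16 (−0.22), all type I basal or activation keratins, were each slightly lower at 24 h, within that spread. Over the 3 arrays, the log2 signal of a member gene spanned 0.05 (KRT8) to 0.48 (KRT19), with a median of 0.17.

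From 24 h to 48 h with non-specific stapled-peptide, the time difference followed the peptide difference at 48 h, as both use the same array. The median was −7.04 for the basal and activation keratins and −2.51 for the simple-epithelial ones, beside 0.01 over all genes. Again 8 of 10 members were over 2-fold lower, against 20.1% of 17297 genes. KRT5 differed by −9.52, KRT14 by −7.08, KRT7 by −6.08, KRT8 by −2.76 and KRT18 by −2.25 in this comparison.

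The genes with a profile over the 4 arrays most like that of KRT5 were SLC16A3, a lactate exporter, NNMT, a nicotinamide methyltransferase, SAA1, an acute-phase protein, MT1M, a metallothionein, and OCIAD2. Their mean absolute distances from KRT5, after each log2 profile was centred on its own mean, were 0.04, 0.05, 0.05, 0.08 and 0.08 among 15288 genes. KRT6A was the seventh closest gene, at a distance of 0.10, whereas KRT14, the filament partner of KRT5, came at rank 118 with a distance of 0.89. For KRT18, the closest genes were VIM, the intermediate filament protein of mesenchymal and many cultured cells, PHLDA3, GCNT1, PRKD1 and ELL2, with distances of 0.01 to 0.02. VIM had log2 signals of 16.27 and 16.20 at 24 h and of 16.32 and 13.97 at 48 h, a difference of −2.35, next to the −2.34 of KRT18. KRT8 had rank 647 in likeness to KRT18, at a distance of 0.17. With 4 arrays, of which 1 stands apart, likeness is mainly an equal difference on that array.

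Of the other keratins, 42 of 44 had a named probe and 23 had a difference at 48 h, with a median of −0.68. Among these, 8 were over 2-fold lower and 1 over 2-fold higher, beside 19.8% and 21.2% of all genes, and 5 were over 10-fold lower, beside 3.92%. KRT6C, the third gene of the KRT6 group, was lower by a bound of −7.18, with log2 signals of 10.86, 10.67, 10.74 and 3.38 in the order of the arrays above. KRT15, a type I keratin of basal and stem cells, differed by −3.75. KRT80 differed by −4.54, and the hair keratins KRT81 and KRT83 by −3.37 and −6.54, with −4.66 at a second KRT83 probe. All 5 had differences between −0.19 and 0.28 at 24 h.

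Keratin genes lie in 2 clusters, and the order of genes, taken from RefSeq without positions, shows which neighbours shared the lower signals. The keratin counts per cluster include the members and other keratins already given, so they are no separate result. In the chromosome 12 cluster, which holds the type II genes and KRT18, 16 of 27 keratin genes had a difference at 48 h, with a median of −2.57, and 9 were over 2-fold lower, where 19.8% of all genes were. The 15 genes on each side gave 24 differences with a median of 0.05, of which 6 were over 2-fold lower, near that share. Of these flanking genes, 2 were over 10-fold lower, where 3.92% of all genes were. They were IGFBP6 (−7.49) and TNS2 (−6.48), named after their values were seen. KRT6B (0.03) lies next to KRT6C (−7.18), followed by KRT6A (−9.60) and KRT5 (−9.58). In the chromosome 17 cluster of type I genes, with the pseudogene KRT42P counted, 19 of 29 keratin genes had a difference, with a median of −0.84, and 8 were over 2-fold lower. Its flanks had a median of −0.05 over 29 genes, of which 5 were over 2-fold lower, again near the 19.8% of all genes. Only 1 of these 29 was over 10-fold lower, TNS4 (−7.94), also named after its value was seen. The other genes within this cluster had a median of −0.76 over 11 genes, close to that of its keratins, with 3 over 2-fold lower. KRT19 (0.94) lies between KRT15 (−3.75) and, beyond KRT9, the run of KRT14, KRT16 and KRT17. With stapled-peptide at 48 h, KRT6B (5.96) and KRT19 (4.50) were too dim to be called over 10-fold lower. The gaps between these 2 genes and their neighbours are therefore in part set by their low signals.

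**Figure D4:**
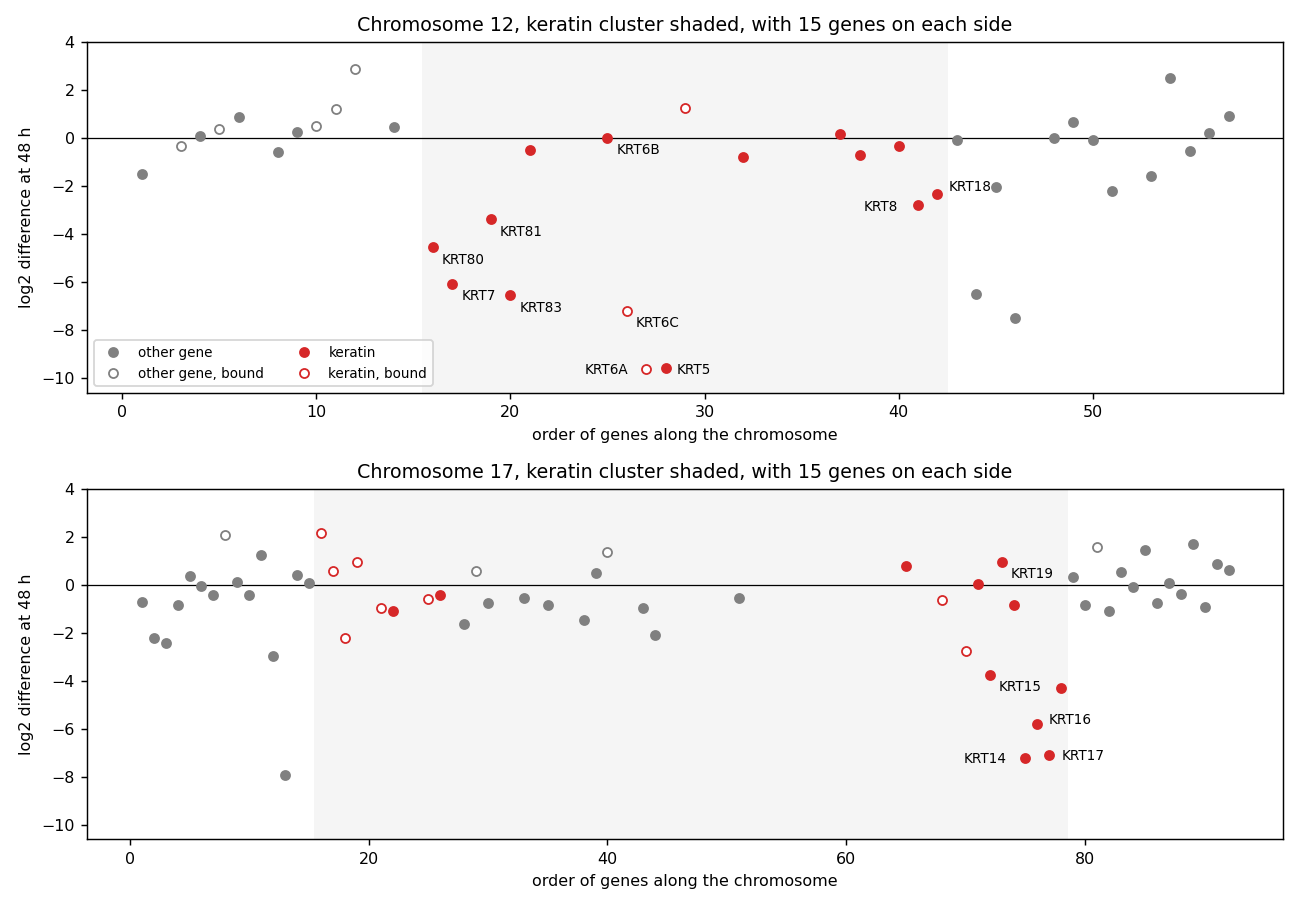
Log2 difference at 48 h, non-specific stapled-peptide minus stapled-peptide (y axis), of genes in their order (x axis) along the keratin clusters of chromosomes 12 (top) and 17 (bottom), with the cluster shaded and 15 genes on each side; red is keratins, grey is other genes, and open circles are bounds. KRT6A (−9.60) and KRT5 (−9.58) lie near KRT6B at 0.03, with KRT6C (−7.18) between. KRT14, KRT16 and KRT17 lie together at one end of the chromosome 17 cluster near KRT19 at 0.94. KRT6B and KRT19 were too dim with stapled-peptide to be called over 10-fold lower.

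Of 10 probes assigned to keratin pseudogenes, 4 had a difference at 48 h. KRT16P2 had log2 signals of 11.41, 11.05, 11.10 and 4.31, a difference of −6.79 beside −5.78 for KRT16. KRT18P55 had 12.91, 12.77, 12.81 and 10.29, a difference of −2.53 beside −2.34 for KRT18. KRT42P differed by −4.28, and KRT19P2 by at least 0.53. These probes may share sequence with KRT16, KRT18 and KRT17, which was not tested.

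Transcripts for the proteins that tie keratin filaments to desmosomes, hemidesmosomes and one another were also lower at 48 h in most cases. Of 12 such genes, 8 were over 2-fold lower and 1 over 2-fold higher, beside 19.8% and 21.2% of all genes, with a median of −1.80. PPL, periplakin, was not well above background on the array of non-specific stapled-peptide at 48 h and was lower by a bound of −8.00. PKP3, a desmosomal plakophilin, differed by −7.84, and PKP2, another plakophilin, by −3.69. PLEC, plectin, which binds keratins to hemidesmosomes, differed by −6.40, and by −2.70 at a second probe. DSP, desmoplakin, which anchors keratins at desmosomes and is named after its values were seen, read 11.23, 11.32, 11.29 and 11.19, a difference of −0.10 at 48 h. At 24 h, the 10 linkers with a difference lay between −0.09 and 0.18.

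Of 15 other intermediate filament genes, 14 had a difference at 48 h, with 2 over 2-fold lower and 4 over 2-fold higher and a median of 0.43, where 19.8% and 21.2% of all genes passed 2-fold, so these counts lie near the background. LMNA, which encodes A-type nuclear lamins, differed by −4.05. The neuronal filament genes NEFM, NEFL and INA were not well above background on the 3 other arrays and read 11.93, 11.15 and 9.25 on that of non-specific stapled-peptide at 48 h, which gives bounds of 8.05, 7.26 and 5.36 higher. These 3 genes have a difference only through the array on which they are high. NEFH, the other neurofilament gene, named after its values were seen, differed by −0.15 at its brighter probe. Its second probe was likewise dim on the 3 other arrays and read 5.76 on this one, a bound of 1.87 higher.

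Transcription factors known to act on keratin genes had a median difference of −1.39 at 48 h over 9 of 11 genes. Of these, 6 were over 2-fold lower and 1 over 2-fold higher, beside 19.8% and 21.2% of all genes. The brightest with stapled-peptide at 48 h, KLF5, read 9.13, where 3.57 was the lowest signal called well above background on the other array. None could therefore have reached the basal keratin median of −7.14. Whether these factors changed less than the basal keratins was not tested. TP63, the basal lineage factor that drives KRT5 and KRT14, had log2 signals of 6.22, 5.99, 5.86 and 4.85, a difference of −1.01 at 48 h. KLF4 differed by −3.33, EHF by a bound of −4.11, ELF3 by −1.64, KLF5 by −1.48, TFAP2C by −1.39, GRHL3 by −0.53 and TFAP2A by 0.09. GRHL2, an epithelial factor, was not well above background on the 3 other arrays and was higher by a bound of 2.25. It has a difference only through the array on which it is high, and its second probe was dim on every array. OVOL1 and ZNF750 were dim on every array.

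Markers of basal mammary cells outside the keratins moved with the keratins. All 8 were well above background on each array and over 2-fold lower with non-specific stapled-peptide at 48 h, with a median of −5.28, and their summed normalized signal was 625 on that array and 75276 to 79195 on the others. LAMB3 differed by −8.47 and ITGB4 by −8.18, both parts of hemidesmosome adhesion, SFN by −7.76, CAV1 by −6.63, CDH3 by −3.94, EGFR by −2.82, ITGA6 by −2.04 and TP63 by −1.01. At 24 h, these 8 lay between −0.23 and 0.16. MCF-10A as labelled thus carried KRT5, KRT14, KRT17 and all 8 markers on 3 arrays, and on the array of non-specific stapled-peptide at 48 h KRT6A was not well above background and KRT5, KRT14 and KRT17 were at under 1% of their level with stapled-peptide.

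Markers of other cells were summed in the same way. Of 8 luminal markers, 5 or 6 were well above background on each array, AGR2 and PGR on none, and their sum was 563 on the array that stands apart and 3507 to 3586 on the others, with MUC1 at −5.23 and, at a second probe, −1.25. Of the 5 luminal markers with a difference at 48 h, MUC1 was the one over 2-fold lower and FOXA1, at 1.31 and named after its values were seen, the one over 2-fold higher, and the median was −0.31. Of 5 pan-epithelial markers, 3 or 4 were well above background, ESRP1 on no array, with sums of 675 and 527 to 542. Of 9 fibroblast markers, 3 were well above background on that array and 5 or 6 on the others, with sums of 204 and 30653 to 33161. COL1A2 and COL3A1 were dim on every array, and DCN (−9.15) and POSTN (a bound of −6.38) were over 10-fold lower. Of the 6 fibroblast markers with a difference at 48 h, 4 were over 2-fold lower, beside 19.8% of all genes. The others were COL1A1 (0.13) and LUM (a bound of 0.19 higher), named after their values were seen. Of 5 blood cell markers, 4 were well above background on each array, with sums of 300.0 and 774 to 789 and CD14 at −3.73. Of 4 endothelial markers, 2 were well above background on that array and 3 or 4 on the others, with sums of 62.2 and 674 to 756 and KDR at a bound of −5.62. On the arrays other than that of non-specific stapled-peptide at 48 h, a single bright gene made up most of each of several sums. It was MUC1 for the luminal, DCN for the fibroblast, CD14 for the blood cell and KDR for the endothelial markers. The part of the shifts in these markers in the keratin differences was not tested.

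**Figure D5:**
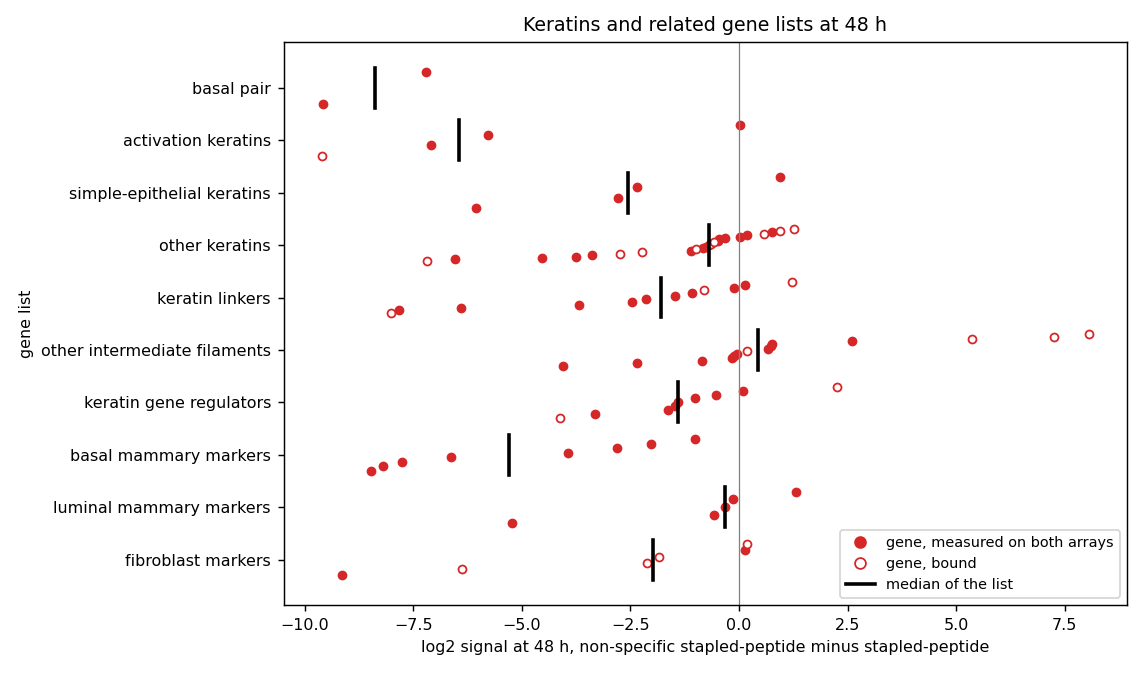
Log2 difference at 48 h, non-specific stapled-peptide minus stapled-peptide (x axis), of each gene with a difference in the keratin lists and the lists of related genes and cell markers (y axis); filled points are measured on both arrays, open points are bounds, and black bars are list medians. The medians run from −8.39 for KRT5 and KRT14 and −6.43 for the activation keratins to −2.57 for the simple-epithelial keratins and 0.43 for the other intermediate filaments.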

How the data were processed

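Total RNA of MCF-10A cells was labelled with Cy3 and hybridized to 4 Agilent arrays. The authors deposited linear spot intensity values, background-subtracted by Feature Extraction (version 10.7.1.1 in the file headers, 9.5 in the submitters' processing notes) and not normalized between arrays, and a combined table of the same values. Control spots and marked outlier spots were left out, 9 probes without a remaining spot were dropped, log2 values were averaged per probe, held at a signal of at least 1 and quantile-normalized, as the study's methods state. Symbols came from RefSeq accessions for 28168 probes (55.7%), and a gene took its probe with the highest mean signal. Probes well above background on 1 array of a pair entered as bounds, and those on neither were left out. Members and lists were chosen with earlier results of these data known. Named were all members, genes of each list over 10-fold at 48 h, every regulator and basal marker, and the 5 genes nearest to KRT5 and KRT18. One gene that this rule names is not reported here. Alternatives covered normalization, background correction (limma 3.58.1 in R 4.3.3), dim probes, marked spots, probe averaging, the combined table and the threshold. Python 3.11.15, numpy 2.4.6 and pandas 2.3.3 were used, and steps were tested on simulated data.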

Additional observations from a re-analysis of the deposited data

Results flagged for a closer look

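Of the 10 keratins, 4 had peptide differences of opposite sign at 24 h and 48 h, each from 1 array per peptide and time, and the difference between the times was not tested. Over all 15705 genes with a difference at both times, 45.4% had opposite signs. The log2 difference at 48 h minus that at 24 h was −9.60 for KRT6A (a bound), −6.11 for KRT7, −2.81 for KRT8 and 1.36 for KRT19. For KRT6A, KRT7 and KRT8 the 24 h value lay within 0.06 of 0, and without normalization it was −0.04, −0.02 and −0.02, of the same sign as at 48 h. KRT19 kept the opposite sign there, with both values from signals close to background.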

How the results depend on the processing

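Among the 102 summary values and 169 single-gene values recomputed under the alternatives, no value of over 2-fold changed sign. Of the values within 2-fold, 2 summary values (the simple-epithelial median over time with stapled-peptide, −0.21 without normalization and −0.10 with probes averaged) and 9 single-gene values (KRT6A, KRT7 and KRT8 at 24 h, KRT6B at 48 h) did. With the normexp correction and an offset of 50, which compresses low signals, the basal median was −5.38 at 48 h and −5.28 over time with non-specific stapled-peptide, the basal median minus the simple-epithelial one was −2.89, and 2 members were over 100-fold lower in place of 4. Single values also moved there, to −7.94 for KRT5, −5.51 for KRT14, −6.86 for KRT6A, −3.93 for KRT16, −5.25 for KRT17 and 0.26 for KRT19. With a 10-fold threshold, 6 members were lower in place of 8. When a probe had to be well above background on each array compared, KRT6A had no value at 48 h, and 7 members were over 2-fold and 3 over 100-fold lower. Without normalization the median of all genes at 48 h was 0.26, and 16.3% were over 2-fold lower and 27.2% higher, against 19.8% and 21.2%. From 24 h to 48 h with stapled-peptide that median was −0.23. Scaling to the 75th percentile gave −0.12 over time with non-specific stapled-peptide. Quantile normalization without the array that stands apart, chosen after seeing the data, left the 15 values that could be computed within the spread. No paired analysis was possible because each condition has 1 array. Without replicates, the array of non-specific stapled-peptide at 48 h alone decides every large difference, and a dim probe gives a bound only.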
